A study of Homo sapiens with 18 samples.

Results

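The response to loss of POU2F3 was compared between 2 stable lines of NCI-H211, a small cell lung cancer cell line of the tuft-like type that carried Cas9. One line held an empty vector and the other a CRISPR-resistant POU2F3 cDNA with the L191A substitution, an alanine in place of a leucine. Of the 18 libraries of the series, 12 were used: each line was infected in triplicate with a lentivirus for sgPOU2F3, a guide against endogenous POU2F3, or for sgRosa, a negative control guide, and RNA was collected 5 days later. The groups were therefore empty vector with sgRosa, empty vector with sgPOU2F3, L191A with sgRosa and L191A with sgPOU2F3, with 3 libraries in each. The libraries of the wild-type cDNA line entered only an alternative fit. The quantity studied was the response of the L191A line (sgPOU2F3 minus sgRosa, on log2(TPM + 1)) minus the response of the empty-vector line, over the 12892 genes of 19741 whose average over the 12 libraries was 1 TPM or more. By arithmetic the same quantity is the difference between the lines at the end (sgPOU2F3) minus their difference at the start (sgRosa). Starting levels or starting differences are therefore given for many genes, though not for every one. Where neither is given, the values do not tell which part of the difference lay at the start.

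POU2F3 is an octamer-binding transcription factor of the POU family and the factor on which tuft cells, the chemosensory cells of gut and airway epithelium, depend. It works with the coactivators POU2AF2 and POU2AF3, listed under their older symbols C11orf53 and COLCA2, and with POU2AF1. Tuft cells carry the signalling chain of taste cells, in which bitter receptors of the TAS2R family act through a taste G protein, a phospholipase and an ion channel. NCI-H211 is 1 cell line and each condition is 1 stable line, infected 3 times. Differences between the lines at the start therefore cannot be told apart from differences in how the lines were derived, and p-values measure the spread between infections. Whether a line was a single clone is not given in the sources used here. In these bulk samples, fewer cells with a programme and less RNA of it per cell cannot be told apart.

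One library stood apart. L191A sgRosa replicate 1 had a median of 7.30 TPM over genes, against 19.05 to 26.05 TPM in the other 11, and ribosomal protein genes took 37.65% of the TPM, against 15.64% to 24.11%. Relative to its other replicates it lost 0.593 log2 units per doubling of transcript length. It is a starting library of the L191A line, so results come from a fit of the 11 other libraries unless all 12 are named, and the 12-library value is given where it changes the call for a response difference. Read depth was lost in the TPM scale, so no counting error can be given.

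POU2F3 itself (chr11:120236640-120319944, plus strand, GRCh38) checked the guide labels of the empty-vector line only. In empty-vector cells it was at 682, 654 and 853 TPM with sgRosa and at 253, 318 and 274 TPM with sgPOU2F3, and no library of one group reached the other. In L191A cells it was at 142, 1053 and 831 TPM with sgRosa and at 621, 672 and 645 TPM with sgPOU2F3. The TPM of POU2F3 does not separate transcripts of the endogenous gene from those of the cDNA, so it does not check the labels of the L191A line. The response difference of POU2F3 was 0.83 ± 0.18 (SE) in the 11-library fit (limma adjusted p = 0.00952), and 1.74 ± 0.80 in the 12-library fit, where the call was lost (limma adjusted p = 0.233). C11orf53, the coactivator POU2AF2, fell by about as much in both lines: from 589, 590 and 623 TPM to 285, 282 and 281 TPM in empty-vector cells, and from 244, 407 and 379 TPM to 173, 176 and 161 TPM in L191A cells. Its response difference was -0.12 in the 11-library fit (95% interval -0.34 to 0.10, limma adjusted p = 0.437), and 0.11 with all 12 libraries (limma adjusted p = 0.747). COLCA2, the coactivator POU2AF3, fell from a mean of 13.2 TPM to 6.68 TPM in empty-vector cells, whereas the L191A libraries read 3.22, 9.47 and 6.48 TPM before and 9.73, 6.79 and 9.0 TPM after, and its response difference was 0.99 ± 0.25 (limma adjusted p = 0.0195 in the 11-library fit and 0.116 in the 12-library fit). POU2F1 lay between 1.13 and 9.29 TPM in all libraries with no call for the response difference, and POU2F2 and POU2AF1 were under the level tested.

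Genes that sgPOU2F3 moved at least 2-fold in empty-vector cells had smaller median responses in L191A cells, among those that rose and among those that fell. Without the skewed library, 2395 genes (18.6% of those tested) rose and 3936 (30.5%) fell in empty-vector cells, while 847 (6.57%) rose and 322 (2.5%) fell in L191A cells; "called" means an adjusted p under 0.05 in limma throughout. With all 12 libraries 861 (6.68%) rose and 901 (6.99%) fell in empty-vector cells. In L191A cells 511 (3.96%) rose and 55 (0.427%) fell. The empty-vector estimates are the same in both fits (median -0.12), because the library left out is not an empty-vector library. The test uses a spread shared by the groups, so empty-vector calls also depend on the skewed library. The median SE of the empty-vector response was 0.27 with all 12 libraries and 0.14 without that library. The L191A counts of the 11-library fit rest on 2 sgRosa libraries, and the overlaps that follow are from that fit. The responses of the 2 lines share no library, and 597 genes rose in both, which is 24.9% of the empty-vector rises and 70.5% of the L191A rises. Genes that fell in both numbered 251, or 6.38% of the empty-vector falls and 78.0% of the L191A falls. Of 483 genes that rose at least 2-fold in empty-vector cells, 333 (68.9%) also rose in L191A cells, and the median response was 1.65 in the first line and 1.01 in the second. Of 604 genes that fell at least 2-fold, 123 (20.4%) fell in L191A cells, and the medians were -1.24 and -0.23. Both sets were chosen by their empty-vector response, so the smaller medians of the other line are a description.

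The difference itself was called for 2378 genes in the 11-library fit. In 1551 of them (12% of genes tested) it was higher in L191A cells, a smaller fall or a larger rise, and in 827 (6.41%) it was lower, a smaller rise or a larger fall. With all 12 libraries it was called for 310 genes, 193 higher (1.5%) and 117 lower (0.908%). All 310 were also called, with the same sign, without the skewed library. The median over all genes tested was 0.14 in the 11-library fit and 0.48 in the 12-library fit, so a gene's value is read against those levels. Median-ratio scaling and quantile normalization brought these medians to between -0.04 and 0.01, and then the higher and lower calls split almost evenly: 1602 against 1725 and 1702 against 1576 without the skewed library, and 532 against 529 and 729 against 784 with all 12.

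**Figure D1:**
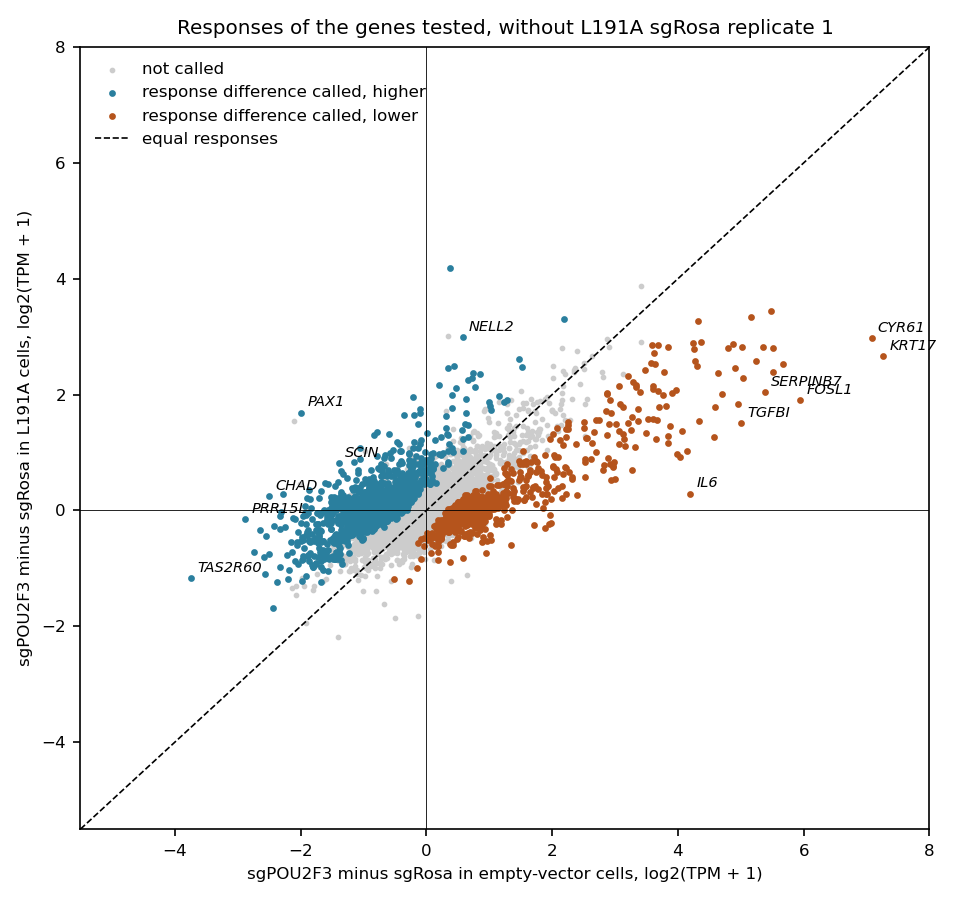
Response to sgPOU2F3 of each of the 12892 genes tested, in empty-vector cells (horizontal axis) and in L191A cells (vertical axis), as differences of log2(TPM + 1) without L191A sgRosa replicate 1. Coloured points are the 1551 genes called higher and the 827 called lower for the difference; KRT17 and CYR61, with the largest empty-vector rises, lie below the dashed line of equal responses.

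The largest of the smaller rises were in genes of basal epithelium, extracellular matrix and inflammation that were almost silent in empty-vector sgRosa cells. KRT17, a keratin of basal and wounded epithelium (chr17:41619441-41624842, minus strand), read 3.0, 1.94 and 2.07 TPM in empty-vector sgRosa cells and 524, 512 and 481 TPM after sgPOU2F3. In L191A cells it went from 23.3, 23.0 and 34.0 TPM to 196, 199 and 158 TPM. The 4 groups did not overlap: L191A cells started higher and ended lower. The response was 7.26 in empty-vector and 2.67 in L191A cells on the log2 scale, and the difference was -4.59 (95% interval -5.08 to -4.10, limma adjusted p = 6.55e-07) in the 11-library fit and -4.50 (limma adjusted p = 4.05e-05) with all 12 libraries. KRT16, a related keratin whose reads can be shared with pseudogenes and with KRT17, rose from at most 0.096 TPM to 19.6, 18.3 and 15.6 TPM in empty-vector cells, and to only 3.77, 2.55 and 2.38 TPM in L191A cells.

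CYR61, also called CCN1, a matrix protein encoded by a standard target gene of YAP and TAZ (chr1:85580761-85583962, plus strand), started far apart and ended close. It read 2.20, 2.56 and 2.13 TPM and then 440, 487 and 405 TPM in empty-vector cells. In L191A cells it read 22.1, 34.1 and 50 TPM and then 367, 356 and 284 TPM. The starting difference was 3.68 (limma adjusted p = 1.21e-08, 11-library fit) and the end difference -0.41 (limma adjusted p = 0.0575), which gave a response difference of -4.09 (95% interval -4.55 to -3.64, limma adjusted p = 6.55e-07) and, with all 12 libraries, -3.80 (limma adjusted p = 0.000456). GREM1, a secreted antagonist of bone morphogenetic proteins (chr15:32717974-32745107, plus strand), had the same pattern: it ended at 29.8, 29.2 and 27.2 TPM in empty-vector and 27.5, 27.3 and 24.1 TPM in L191A cells, from starts of at most 0.335 TPM and of 3.32, 8.54 and 12.5 TPM. For both genes most of the response difference lay at the start.

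IL6, the gene of an inflammatory cytokine (chr7:22725884-22732002, plus strand), was the reverse case. It read 0.261, 0.255 and 0.165 TPM in empty-vector sgRosa cells and 20.9, 22 and 21.2 TPM after sgPOU2F3. The L191A libraries read 0.954, 0.738 and 1.70 TPM and then 1.47, 1.91 and 1.56 TPM, so the 2 guides overlapped. The L191A response was 0.29 (limma adjusted p = 0.457), and the response difference was -3.90 (95% interval -4.43 to -3.37, limma adjusted p = 3.03e-06, 11-library fit) and -3.85 (limma adjusted p = 5.02e-05, 12-library fit). The starting difference was 0.82 (limma adjusted p = 0.00514, 11-library fit) and the end difference -3.08.

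Between these cases lay FOSL1, TGFBI, SERPINB7 and PLAU. FOSL1 encodes an AP-1 subunit (chr11:65892049-65900573, minus strand) and ended at 105, 107 and 94.2 TPM in empty-vector and at 30.6, 26.7 and 25.4 TPM in L191A cells, with a response difference of -4.03 (limma adjusted p = 4.61e-06) and a start 2.18 above that of empty-vector cells. TGFBI, a matrix protein induced by TGF-beta, ended at 73.3, 73.0 and 66.4 TPM against 9.34, 9.28 and 9.0 TPM. Its starting difference was 0.67 (limma adjusted p = 0.00568), so most of the response difference of -3.49 lay at the end. PLAU, urokinase itself, differed by -3.12 and SERPINB7, a protease inhibitor of the serpin family, by -3.35, with starting differences of 1.54 and 1.61. All 4 response differences were called in both fits. The segments of start and end levels show these patterns side by side.

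**Figure D2:**
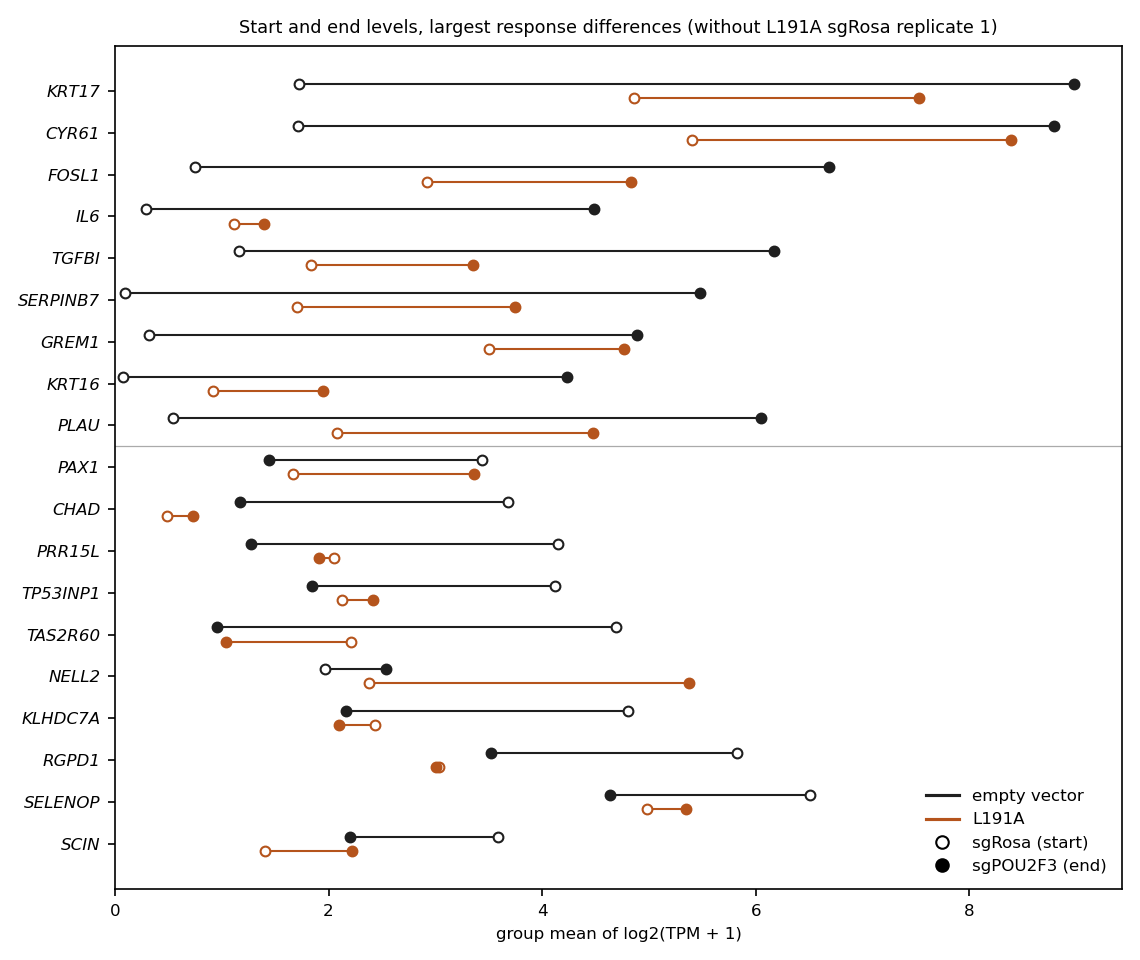
Group means of log2(TPM + 1) at the start (sgRosa, open circles) and at the end (sgPOU2F3, filled circles) in empty-vector cells (black) and L191A cells (orange), for 9 of the 10 lowest and for the 10 highest response differences, without L191A sgRosa replicate 1. Black segments are longer than orange ones for every gene but NELL2. CYR61 and GREM1 end close, whereas IL6 and TGFBI start nearer to each other than they end, although their starting differences were called too.

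AMOTL2, TGFB2, THBS1, IGFBP4 and LIF were among the 10 largest rises of empty-vector cells and rose in L191A cells too. AMOTL2, an angiomotin of the Hippo pathway, reached 66.2, 91.2 and 63.8 TPM in empty-vector and 101, 102 and 94.1 TPM in L191A cells, whose libraries all lay higher. Its response difference of -2.70 (limma adjusted p = 1.01e-05) therefore came from starts of 0.819, 0.540 and 0.521 TPM against 2.48, 12.2 and 14.4 TPM. TGFB2, a transforming growth factor, ended at a mean of 57.9 TPM against 51.2 TPM and differed by -2.53, and IGFBP4, a binding protein of insulin-like growth factors, ended at 269 against 285 TPM and differed by -2.03. THBS1, a matrix glycoprotein, differed by -3.14 and LIF, a cytokine of the IL-6 family, by -2.65, with starting differences of 2.6 and 2.04. In the 12-library fit IGFBP4 passed (limma adjusted p = 0.00413), but THBS1, AMOTL2, TGFB2 and LIF did not (limma adjusted p = 0.117, 0.117, 0.0578 and 0.104), and their starting value in the skewed library was the lowest of the 3 each time.

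The gene lists gave the same directions over more members. They were drawn up with earlier results of these data known, so their counts are descriptions. Each count of response differences is read against all genes tested. Of these 12% were higher and 6.41% lower without the skewed library, and 1.5% and 0.908% with all 12 libraries. Rises and falls within a line are counted without the skewed library unless said. There 18.6% of all genes rose and 30.5% fell in empty-vector cells, and 6.57% rose and 2.5% fell in L191A cells. Among 26 measured NF-kB and inflammatory genes, 26 rose in empty-vector cells and 10 in L191A cells, with median responses of 2.00 and 0.40. The response difference was lower for 23 of the 26 (median -1.55) and higher for none in the 11-library fit, and lower for 10 (median -1.31) with all 12 libraries, or 21 and 23 of the 26 there with median-ratio scaling and quantile normalization. Their summed level ran from 366 to 381 TPM in empty-vector sgRosa cells and from 1071 to 1240 TPM after sgPOU2F3, and in L191A cells from 303 to 450 TPM and then from 615 to 670 TPM. IER3, an early response gene, went from 25.2, 26.7 and 24.9 TPM to 123, 121 and 108 TPM in empty-vector cells, whereas L191A cells went from 25.4, 25.5 and 25.3 TPM to 34.1, 35.4 and 33.3 TPM. The starts of IER3 lay within 2 TPM of each other, and the difference of -1.74 (limma adjusted p = 5.18e-06) lay at the end. ICAM1, an adhesion molecule for leukocytes, differed by -2.42 and ended at 13.7, 16.5 and 12.8 TPM against 3.90, 3.30 and 3.24 TPM.

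Among 26 targets of YAP and TAZ the difference was lower for 13 and higher for 2 (median -0.68; 5 and 0 with all 12 libraries, median -0.54), and 15 of the 26 rose in L191A cells, against 18 in empty-vector cells. IGFBP3, one of them, ended higher in L191A cells (220, 215 and 204 TPM against 137, 137 and 131 TPM) and had a response difference of -2.25, with a start of 19.4, 34.1 and 47.0 TPM against 4.86, 4.67 and 3.93 TPM.

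AP-1 factors, the dimer partners that bind one shared site, gave 7 of 10 lower and none higher (median -0.95; 3 of 10 with all 12 libraries, median -0.44). JUNB ended at 63.6, 89.8 and 64.6 TPM in empty-vector and 35.9, 41.3 and 32.5 TPM in L191A cells, where the L191A response of 0.14 was not called (limma adjusted p = 0.732). FOSL2 ended at 91.2, 168 and 88.6 TPM against 52.5, 54.2 and 52.5 TPM, and its difference of -1.68 was called only without the skewed library (limma adjusted p = 0.0027, against 0.396 with it). BATF3 differed in its start instead: 23.8, 19.8 and 24.5 TPM in L191A sgRosa cells against 6.82, 4.22 and 7.05 TPM, with ends of 17, 19.5 and 19.7 TPM against 26.4, 28.4 and 24.2 TPM.

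In the urokinase system and collagenases 8 of 11 measured genes were lower and none higher (median -1.58; 6 of 11 with all 12 libraries, median -1.45). PLAUR, the urokinase receptor (chr19:43646095-43670547, minus strand), rose in empty-vector cells from 14.9, 14.2 and 15.9 TPM to 47.6, 45.9 and 44.1 TPM. In L191A cells it read 13.1, 11.8 and 10.0 TPM and then 11.3, 13.2 and 13.1 TPM, with no call (response 0.18, limma adjusted p = 0.472), and the response difference was -1.37 (limma adjusted p = 0.000214; -1.45 with all 12 libraries). The promoter window of PLAUR is printed because the gene was not called in L191A cells and the window holds an AP-1 site; it runs from 250 bases before to 50 bases after the RefSeq start (GRCh38.p14 chr19:43670120-43670419, minus strand, 5′ to 3′), with the AP-1 match TGAGTCA, 186 bases before the start, in capitals.
PLAUR: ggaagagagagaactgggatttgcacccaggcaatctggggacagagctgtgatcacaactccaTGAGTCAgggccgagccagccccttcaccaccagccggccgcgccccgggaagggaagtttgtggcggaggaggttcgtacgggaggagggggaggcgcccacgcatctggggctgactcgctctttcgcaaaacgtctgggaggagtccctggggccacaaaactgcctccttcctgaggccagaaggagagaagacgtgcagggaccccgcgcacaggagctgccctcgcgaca

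The letters TGANTCA, searched on both strands, stood in the windows of 4 of 10 genes of the urokinase list and in 7.71% of 35116 RefSeq promoters of the same length. A TEAD core, CATTCC, stood in the windows of 10 of 20 YAP and TAZ target genes and in 14.0% of all promoters. Here and below, lists are counted by gene and the share of all promoters by single window. A gene can have several windows, so the counts and the share are not the same measure. These matches describe letters and say nothing of binding.

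Antigen presentation and basal keratin genes moved in the same direction. Of 17 genes of MHC class I presentation, 16 rose in empty-vector and 6 in L191A cells, and 9 had a lower response difference and none a higher one (median -0.67; 5 lower with all 12 libraries, median -0.51). PSMB8, a subunit of the immunoproteasome, went from 5.87, 7.57 and 4.70 TPM to 14.8, 17 and 18.8 TPM in empty-vector cells and read 12.4 to 17.2 TPM in all 6 L191A libraries. Its response difference was -1.35 (limma adjusted p = 0.00214) and lay mostly at the start. Of 8 basal and squamous genes 6 were lower (median -1.37; 3 with all 12 libraries, median -1.41). SFN, the epithelial 14-3-3 protein, differed by -1.41, with 80.5, 83.5 and 76.7 TPM at the end in L191A cells against 123, 112 and 105 TPM. LAMB3, a laminin chain of basement membrane, differed by -1.87 (limma adjusted p = 0.000198), but not beyond the threshold with all 12 libraries (limma adjusted p = 0.0725).

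Mesenchymal genes were mixed: 8 of 17 lower and 3 higher (median -0.50), and 4 lower with all 12 libraries (median -0.20, 0.00 there with 7 lower once the trend against transcript length was removed, and -0.73 and -0.85 with 8 lower each after median-ratio scaling and quantile normalization). FN1, fibronectin, rose to 84.0, 131 and 98.4 TPM in empty-vector and to 64.9, 66.2 and 75.2 TPM in L191A cells, from 2.56, 1.87 and 2.61 TPM and from 2.02, 16.6 and 20.8 TPM. The low value of these starts is the skewed library: the response difference was -3.13 without it (limma adjusted p = 9.45e-06) and -2.23 with it (limma adjusted p = 0.161). VIM, vimentin, ended higher in L191A cells (176, 165 and 160 TPM against 111, 122 and 101 TPM) and differed by -2.03. LUM, the matrix proteoglycan lumican, rose to 7.68, 6.24 and 7.38 TPM in empty-vector cells and to 0.507, 0.920 and 0.896 TPM in L191A cells from starts of at most 0.0934 TPM, and its difference of -2.22 lay at the end.

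**Figure D3:**
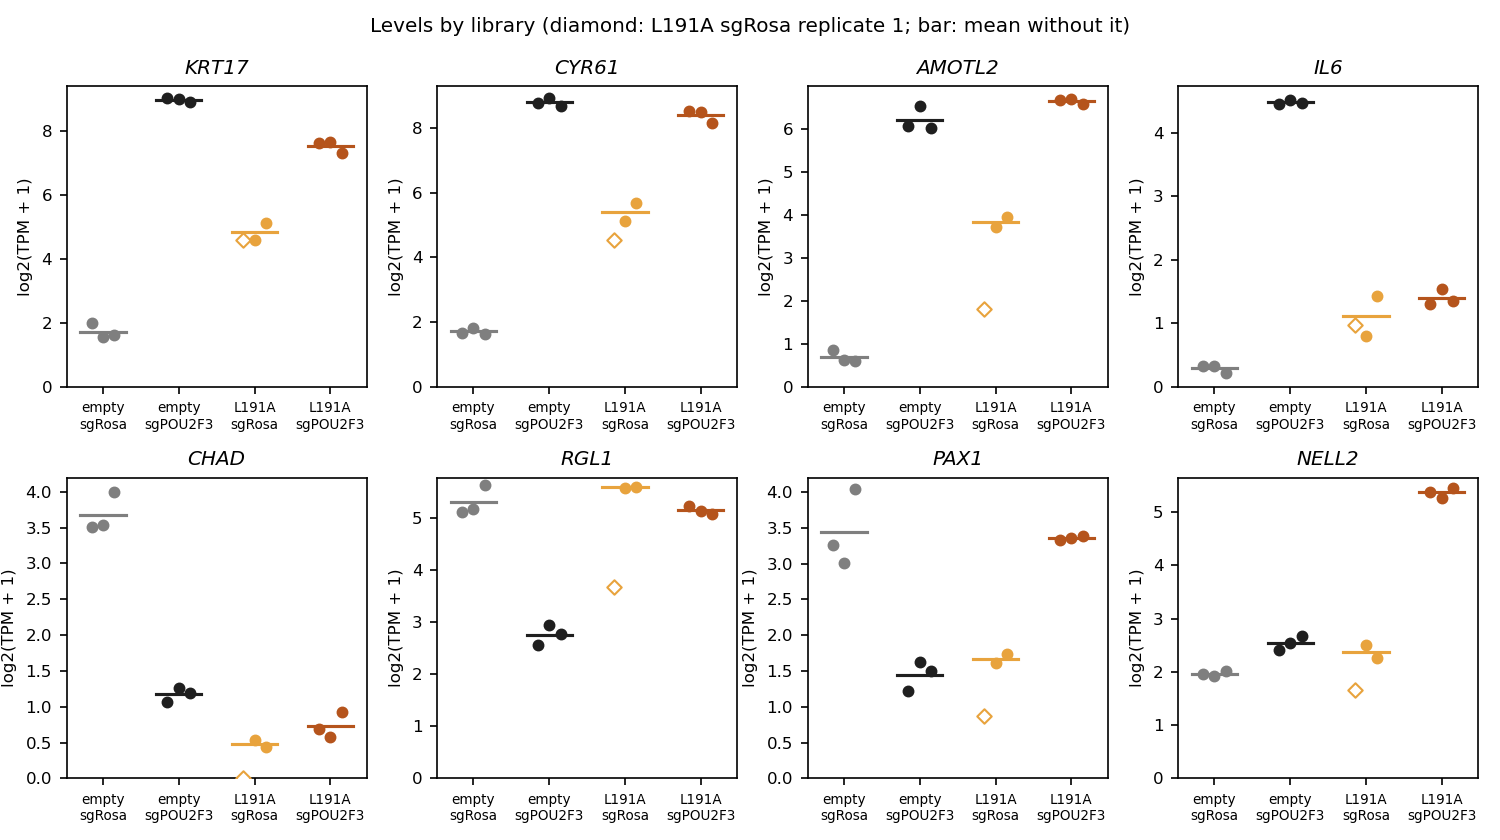
Levels of 8 genes as log2(TPM + 1) in each of the 12 libraries, by line and guide; bars are group means without L191A sgRosa replicate 1, which is drawn as a diamond. KRT17, CYR61, AMOTL2 and IL6 rose less in L191A cells, from higher starts or to lower ends; CHAD was already low at the L191A start, RGL1 stayed high, and PAX1 and NELL2 rose in L191A cells.

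Genes that fell less in L191A cells were, on the other side, of 2 kinds. The first were already low at the L191A start. TAS2R60, a bitter taste receptor gene (chr7:143443453-143444409, plus strand), dropped in empty-vector cells from 21.5, 21.2 and 33.8 TPM to 0.941, 0.961 and 0.920 TPM, the largest fall among the genes named. The L191A libraries read 0.0869, 4.63 and 2.80 TPM and then 0.835, 1.42 and 0.953 TPM. The ends overlapped (end difference 0.08, limma adjusted p = 0.809), and the response difference was 2.57 (95% interval 1.91 to 3.23, limma adjusted p = 0.000242) without the skewed library and 3.27 (limma adjusted p = 0.0332) with it.

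The octamer ATGCAAAT is the site that POU2 factors are known to bind. Searched on both strands, it stood in the windows of 10 of 20 bitter receptor genes with a RefSeq promoter and in 1.77% of all 35116 promoters; the receptors lie in clusters of related genes on chromosomes 7 and 12, so their windows are not independent. Both windows below are printed because they carry the octamer and their genes fell in both lines without the skewed library; with all 12 libraries the L191A fall of TAS2R60 was not called (-0.47, limma adjusted p = 0.495). They run from 250 bases before to 50 bases after the start (GRCh38.p14, 5′ to 3′), TAS2R60 at chr7:143443203-143443502 on the plus strand and TAS2R10 at chr12:10826309-10826608 on the minus strand; capitals mark the octamer, which reads ATTTGCAT on the strand shown, 182 and 172 bases before the start.
TAS2R60: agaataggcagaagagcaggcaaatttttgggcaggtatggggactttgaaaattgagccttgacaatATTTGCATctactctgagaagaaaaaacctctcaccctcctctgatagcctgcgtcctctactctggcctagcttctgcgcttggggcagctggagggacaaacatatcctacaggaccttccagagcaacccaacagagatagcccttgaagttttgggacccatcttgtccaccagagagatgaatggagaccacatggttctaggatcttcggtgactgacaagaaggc
TAS2R10: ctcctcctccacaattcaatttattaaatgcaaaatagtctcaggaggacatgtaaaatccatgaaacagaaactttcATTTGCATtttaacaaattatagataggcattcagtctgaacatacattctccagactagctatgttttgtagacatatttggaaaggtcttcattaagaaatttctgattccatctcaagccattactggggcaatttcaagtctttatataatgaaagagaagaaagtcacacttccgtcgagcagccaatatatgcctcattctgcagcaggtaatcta

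All 14 measured bitter receptor genes fell in empty-vector cells (median -1.30) and 7 of them fell in L191A cells (median -0.52). With all 12 libraries 6 fell in empty-vector cells and 1 in L191A cells (median -0.15). The response difference was higher for 6 and lower for none (median 0.85; 1 higher with all 12 libraries, median 1.31). TAS2R10 fell from 62.3, 66.0 and 85.4 TPM to 11.1, 14.6 and 18.9 TPM in empty-vector cells and from 47.9, 54.8 and 37.1 TPM to 18.6, 19.5 and 19.9 TPM in L191A cells, with a difference of 1.02 (limma adjusted p = 0.0257; 0.114 with all 12 libraries). TAS2R38, the receptor for phenylthiocarbamide, fell from 442, 424 and 600 TPM to 71.9, 91.1 and 105 TPM, and from 6.28, 183 and 162 TPM to 47.2, 56.8 and 55.3 TPM. The first of those L191A starts is the skewed library, and the response of TAS2R38 in L191A cells was -1.68 without it and -0.16 with it (limma adjusted p = 0.912). Its response difference was 0.76 (limma adjusted p = 0.0358) without that library and 2.28 (limma adjusted p = 0.298) with it. TAS2R7, chosen after its values were seen, has the octamer 235 bases before its start and had a response difference of -0.08 (limma adjusted p = 0.848). Several TAS2R genes of chromosome 12, TAS2R31 among them, are close copies whose reads can be misassigned.

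Downstream of the receptors, the taste signalling list gave 10 falls among 12 genes in empty-vector cells and 7 in L191A cells, with medians of -1.81 and -0.88. With all 12 libraries it gave 9 falls in empty-vector cells and 1 in L191A cells (median -0.30). The response difference was higher for 6 and lower for none (median 0.82; 1 higher with all 12 libraries, median 1.2). GNG13, the gamma subunit of the taste G protein, fell from 304, 279 and 370 TPM to 57.8, 60.1 and 62.8 TPM in empty-vector cells. In L191A cells it stood at 5.82, 11.9 and 11.7 TPM with sgRosa and fell to 4.21, 3.68 and 5.56 TPM, a response difference of 1.13 that all 12 libraries did not call (limma adjusted p = 0.0603), and every L191A library lay below every empty-vector library. PLCB2, the phospholipase of the chain, likewise started at 13.5, 39.5 and 38.2 TPM in L191A cells against 358, 320 and 454 TPM, and its difference was 1.17 (limma adjusted p = 0.00826; 0.106 with all 12 libraries).

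Other genes low from the start were CHAD, PRR15L, TP53INP1, KLHDC7A, SH2D6, KIT, BIK and PTGS2. CHAD, chondroadherin of the extracellular matrix, fell from 10.4, 10.6 and 15 TPM to 1.10, 1.40 and 1.28 TPM in empty-vector cells, and all 6 L191A libraries were under 1 TPM. Its response difference was 2.75 (95% interval 2.22 to 3.29, limma adjusted p = 3.06e-05) and 2.91 with all 12 libraries. KIT, a receptor tyrosine kinase of tuft cells, read 91.1, 89.5 and 108 TPM and then 18.0, 25.0 and 23.1 TPM in empty-vector cells, and 3.21, 14.8 and 12.4 TPM and then 12.5, 13.1 and 11.2 TPM in L191A cells. The L191A response of KIT was -0.14 (limma adjusted p = 0.726). PTGS2, the inducible cyclooxygenase, and BIK, a pro-apoptotic BH3-only protein, had starts below 3 and below 6 TPM in every L191A library, against at least 59.8 and 79.1 TPM in empty-vector sgRosa cells, with response differences of 1.47 and 1.74 called in both fits. RGPD1, one of a family of near-identical RANBP2-like genes, went from 51.3, 49.2 and 69.0 TPM to 7.25, 13.2 and 11.9 TPM in empty-vector cells while the L191A libraries read 3.92 to 9.57 TPM, a value that is uncertain between copies.

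The second kind started near or above the empty-vector level and fell less, or without a call. RGL1, an exchange factor for the small GTPase Ral (chr1:183636085-183928531, plus strand), fell from 33.9, 35.2 and 48.4 TPM to 4.89, 6.69 and 5.85 TPM in empty-vector cells. In L191A cells it read 11.8, 47.0 and 47.2 TPM and then 36.4, 34.3 and 32.8 TPM. The starting difference was 0.28 (limma adjusted p = 0.177), the end difference 2.39 (limma adjusted p = 2.01e-07) and the response difference 2.11 (95% interval 1.66 to 2.56, limma adjusted p = 6.61e-05); with the skewed library, whose 11.8 TPM was the low start, it was 2.75 (limma adjusted p = 0.0415). RGS13, a regulator of G protein signalling marking tuft cells, went from 1076, 1136 and 1339 TPM to 229, 238 and 239 TPM in empty-vector cells and from 439, 1084 and 986 TPM to 548, 517 and 509 TPM in L191A cells. RGS21, of the same family, fell to 5.46, 4.42 and 4.34 TPM against 24.4, 20.4 and 20 TPM, from means of 33.5 and 47.5 TPM. The second mean was 37.3 TPM with the skewed library. RGS21 started higher in L191A cells without that library (0.51, limma adjusted p = 0.032), but not with it (0.03, limma adjusted p = 0.936). In L191A cells RGS13 still fell by 0.98 and RGS21 by 1.10, calls that were lost with all 12 libraries (limma adjusted p = 0.318 and 0.353). The response difference was 1.34 for RGS13, called in both fits, and 1.47 for RGS21, called only without the skewed library (limma adjusted p = 0.00138, against 0.066 with it).

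Over all 34 measured tuft markers 27 fell and 3 rose in empty-vector cells (median -1.08) and 17 fell and 1 rose in L191A cells (median -0.71). With all 12 libraries 20 fell and 2 rose in empty-vector cells, but only 2 fell and 1 rose in L191A cells (median -0.22). The response difference was higher for 16 and lower for 2 (median 0.59), and for 8 and 0 with all 12 libraries (median 0.92). Median-ratio scaling gave 14 higher and 5 lower without the skewed library and 9 and 2 with all 12 (medians 0.41 and 0.36). Quantile normalization gave 16 and 6, and 9 and 3 (medians 0.57 and 0.67). At the start 21 of the 34 were lower in L191A cells (26.7% of all genes were lower at the start) and 4 were higher (8.63% of all genes); with all 12 libraries 20 were lower, where 19.7% of all genes were lower and 3.52% higher. Their summed level ran from 7210 to 8444 TPM in empty-vector sgRosa cells, from 3212 to 3620 TPM after sgPOU2F3, from 2057 to 4613 TPM in L191A sgRosa cells and from 3448 to 3503 TPM in L191A sgPOU2F3 cells. The lowest L191A value is the skewed library. The octamer stood in the windows of 7 of 28 tuft marker genes with a promoter.

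Tuft cell transcription factors were mixed. Of 10 measured, 4 had a lower and 2 a higher response difference without the skewed library (median -0.45), and 1 each with all 12 libraries (median 0.14, and negative there after median-ratio scaling, quantile normalization or removal of the length trend). FOXI1, an ionocyte factor also expressed in these cells, read 70.3, 69.2 and 70.4 TPM and then 52.6, 64.1 and 57.6 TPM in empty-vector cells, and 43.1, 83.4 and 81.9 TPM and then 35.2, 35.8 and 34.3 TPM in L191A cells, a difference of -0.94 that was lost with all 12 libraries (limma adjusted p = 0.253). HES6, a helix-loop-helix factor, did not change in a way that passed the test in empty-vector cells (0.19, limma adjusted p = 0.105) and fell in L191A cells to 57.2, 56.3 and 52.3 TPM from 122, 87.9 and 95.4 TPM, with a difference of -0.91 (-1.05 with all 12 libraries) called in both fits. SPIB, an ETS factor, rose in empty-vector cells from 23.0, 19.8 and 24.8 TPM to 36.5, 49.6 and 43.1 TPM and read 4.58 to 8.44 TPM in every L191A library, a difference of -1.35 that was lost with all 12 libraries (limma adjusted p = 0.104).

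**Figure D4:**
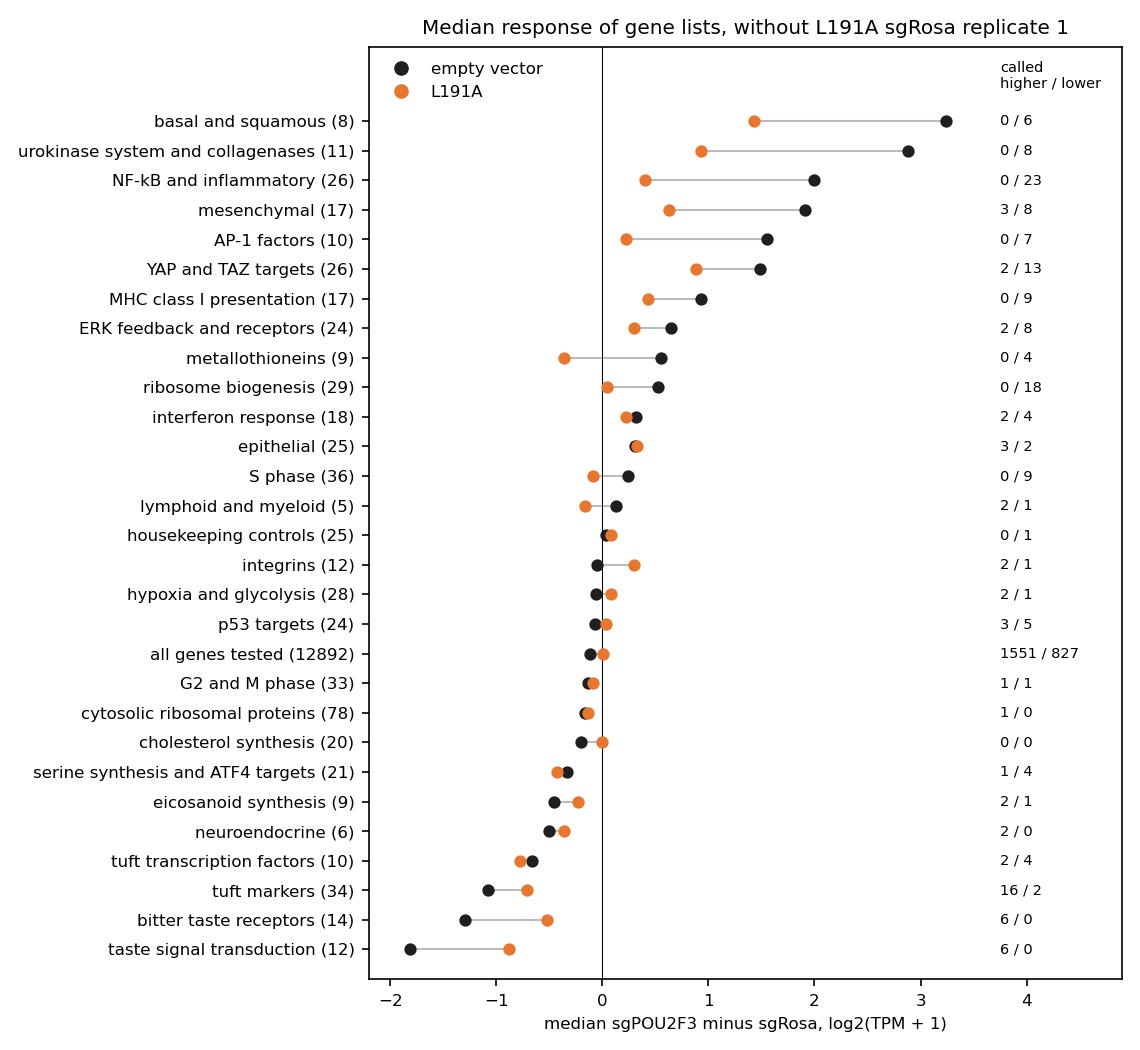
Median response to sgPOU2F3 of the measured members of each gene list in empty-vector cells (black) and L191A cells (orange), on log2(TPM + 1), without L191A sgRosa replicate 1; the number of members is in parentheses and the right column counts members called higher and lower for the response difference. NF-kB, urokinase and basal lists have the widest gaps on the right and the taste lists on the left.

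Without the skewed library, for 48 of the 12892 genes tested both responses were called in opposite directions and the difference was called too. These 48 averaged 5 TPM or more in 1 of the groups, and 41 of them fell in empty-vector cells and rose in L191A cells. That split is read against all genes in the same fit. There 3936 fell and 2395 rose in empty-vector cells, and 847 rose and 322 fell in L191A cells. It was not counted with all 12 libraries or after scaling. PAX1, a paired-box transcription factor (chr20:21705659-21718486, plus strand), had the largest difference of the 48. It went from 8.60, 7.03 and 15.5 TPM to 1.34, 2.07 and 1.82 TPM in empty-vector cells and from 0.828, 2.05 and 2.32 TPM to 9.08, 9.29 and 9.44 TPM in L191A cells. Within each line the guides did not overlap, and the 2 lines traded levels. Its difference was 3.68 (95% interval 2.96 to 4.40, limma adjusted p = 3.06e-05) and 3.95 with all 12 libraries (limma adjusted p = 0.00106).

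SCIN, an actin-severing protein, FOXA1, a pioneer factor of epithelia, and SESN3, a stress-induced sestrin, also fell in empty-vector and rose in L191A cells without the skewed library. With all 12 libraries SCIN kept both calls, while the L191A rise of FOXA1 (limma adjusted p = 0.075) and the empty-vector fall of SESN3 (limma adjusted p = 0.0942) were lost. SCIN went from 11.2, 9.12 and 13.1 TPM to 3.58, 3.96 and 3.24 TPM and from 0.565, 1.93 and 1.38 TPM to 3.65, 3.67 and 3.66 TPM, so the ends of SCIN lay close. FOXA1 ended at 6.04, 10.9 and 7.37 TPM in empty-vector and 6.54, 7.54 and 8.46 TPM in L191A cells, from starts of at least 15.6 TPM and at most 3.88 TPM. In SESN3 the starts overlapped (6.17, 5.96 and 10.4 TPM against 1.31, 6.32 and 4.94 TPM) and the ends did not (2.50, 3.93 and 2.68 TPM against 12.9, 13.0 and 12.8 TPM). ARHGAP24, which acts on the GTPase Rac, ended at 1.24, 1.80 and 1.42 TPM against 7.31, 8.76 and 7.93 TPM, with an L191A rise that all 12 libraries did not call (limma adjusted p = 0.0571). ADGRF1, an adhesion receptor, fell by 0.36 in empty-vector cells (limma adjusted p = 0.0248, and 0.439 with all 12 libraries) and rose to 27.2, 25.3 and 28.1 TPM in L191A cells.

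NELL2, a secreted protein of the nervous system (chr12:44508275-44921848, minus strand), rose far more in L191A cells. It read 2.87, 2.78 and 3.06 TPM and then 4.34, 4.80 and 5.39 TPM in empty-vector cells, and 2.17, 4.67 and 3.77 TPM and then 40.7, 37.6 and 43 TPM in L191A cells. Its starting difference was 0.41 and its response difference 2.41 (95% interval 2.01 to 2.82, limma adjusted p = 1.01e-05), or 2.65 (limma adjusted p = 0.00165) with all 12 libraries. CDH1, E-cadherin, rose to 278, 260 and 210 TPM in L191A cells and was at 154, 195 and 161 TPM in empty-vector cells, where its response was not called (limma adjusted p = 0.0667); its response difference of 1.11 was lost with all 12 libraries (limma adjusted p = 0.143). KRT18, a keratin of simple epithelium, rose in both lines, to 744, 743 and 732 TPM and to 1205, 1217 and 1276 TPM from means of 304 and 310 TPM, with a difference of 0.62 called in both fits. SELENOP, the plasma selenium carrier, fell from 80.1, 86.1 and 105 TPM to 23.5, 22.9 and 25.2 TPM in empty-vector cells, while L191A cells read 26.6, 39.2 and 23.9 TPM and then 38.9, 40.6 and 39.9 TPM.

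**Figure D5:**
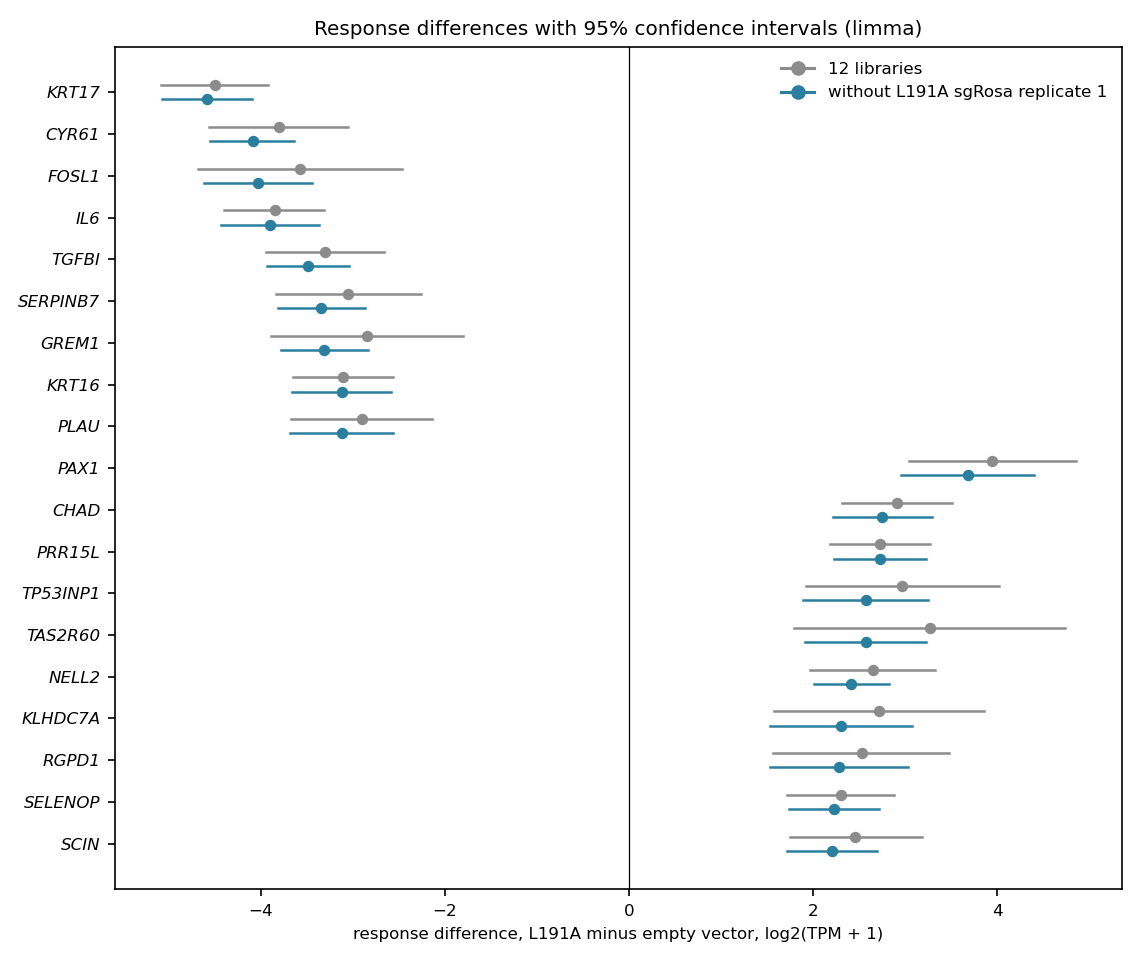
Response difference, L191A minus empty vector, with its 95% interval from limma, for 9 of the 10 lowest and for the 10 highest genes, from all 12 libraries (grey) and without L191A sgRosa replicate 1 (blue). No interval reaches 0; the widest grey interval is that of TAS2R60.

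Some genes differed strongly between the lines at the start with no call for the response difference. PAX6, a paired-box factor of eye and pancreas (chr11:31784779-31818062, minus strand), read 0.467 to 0.854 TPM in all 6 empty-vector libraries, 8.78, 86.1 and 83.6 TPM in L191A sgRosa cells and 60.1, 60.4 and 58.8 TPM in L191A sgPOU2F3 cells. Its starting difference was 5.77 (limma adjusted p = 1.81e-10; 4.72 with all 12 libraries) and its response difference -0.55 (95% interval -0.96 to -0.13, limma adjusted p = 0.0647), which turned to 0.50 (limma adjusted p = 0.71) with all 12 libraries. NTS, neurotensin, read 2.72 to 6.19 TPM in empty-vector cells against 219, 174 and 128 TPM and then 262, 242 and 236 TPM in L191A cells, with a starting difference of 4.98 and a response difference of 0.26 (limma adjusted p = 0.466). PCOLCE, an enhancer of procollagen processing, had a starting difference of 3.93 and a response difference of -0.09 (limma adjusted p = 0.726), which was 0.13 with all 12 libraries. ERP27, an endoplasmic reticulum protein, differed in both: it started at 27.0, 70.0 and 42.2 TPM against at most 0.596 TPM, and its response difference was -2.24.

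PLA2G4A, the cytosolic phospholipase that feeds eicosanoid synthesis, was low in L191A cells under both guides (0.931 to 3.31 TPM, against 28.3 to 89.6 TPM in empty-vector cells) and its difference of 0.86 was called only without the skewed library. The histone genes HIST1H4J and HIST1H4K, near-identical copies, were listed at 0 in some libraries and not in others. HIST1H4K was listed at 0 in all 3 L191A sgRosa libraries and at 2.06, 85.2 and 22.2 TPM in L191A sgPOU2F3 cells, and HIST1H4J at 0.0, 0.0 and 17.2 TPM in empty-vector sgRosa cells, so neither value is a firm level.

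Growth genes were called mostly without the skewed library. Of 29 ribosome biogenesis genes 25 rose in empty-vector cells and none in L191A cells without the skewed library, where 18.6% and 6.57% of all genes rose. With all 12 libraries 12 and 0 rose, where 6.68% and 3.96% of all genes rose. With median-ratio scaling and quantile normalization of all 12 the response difference was lower for 7 and 9. Unscaled, it was lower for 18 (median -0.53) without the skewed library, but for only 1 with it (median -0.38). PES1, a factor of large subunit assembly, was that gene: it went from 98.3, 85.5 and 81.3 TPM to 161, 158 and 164 TPM in empty-vector cells, and read 124, 129 and 148 TPM and then 140, 141 and 146 TPM in L191A cells, a difference of -0.82 (limma adjusted p = 0.00138; 0.0409 with all 12 libraries). At the start 21 of the 29 were higher in L191A cells without the skewed library (median 0.36), where 8.63% of all genes were higher. With all 12 libraries 5 were higher (median 0.06), where 3.52% of all genes were higher. Of 36 S phase genes 9 were lower (median -0.35) without the skewed library and none with it, but 17 and 16, and 6 and 7, after median-ratio scaling and quantile normalization, and of 33 genes of G2 and M phase 1 was higher and 1 lower (median 0.07). Feedback genes and receptors of the ERK pathway gave 8 of 24 lower and 2 higher (median -0.45; 2 and 1 with all 12 libraries, median -0.04). ETV4, an ETS factor downstream of ERK, rose in empty-vector cells from 6.87, 5.57 and 5.66 TPM to 21.7, 29.8 and 27.5 TPM and was between 18.3 and 24.7 TPM in all 6 L191A libraries.

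The remaining lists had smaller counts. Of 18 interferon response genes 4 were lower and 2 higher without the skewed library, where 6.41% of all genes were lower and 12% higher. With all 12 libraries 2 were lower, where 0.908% of all genes were lower. IFITM3, an antiviral membrane protein with close copies, ended higher in L191A cells (357, 380 and 370 TPM against 283, 238 and 284 TPM) and differed by -2.02 from a start of 69.7, 96.3 and 116 TPM against 19.3, 17.9 and 17.2 TPM. Of 9 metallothioneins, also close copies, 4 were lower (median -0.91) and 1 with all 12 libraries. Without the skewed library the counts of higher and lower genes, against 12% and 6.41% of all genes, were 3 and 2 of 25 epithelial genes, 2 and 1 of 12 integrins, 3 and 5 of 24 p53 targets, 1 and 4 of 21 serine synthesis and ATF4 targets, 0 and 0 of 20 cholesterol synthesis genes, 2 and 1 of 28 hypoxia and glycolysis genes, 2 and 1 of 9 eicosanoid genes, 0 and 1 of 25 housekeeping controls and, for proteins of the cytosolic ribosome, 1 and 0 of 78. With the length trend removed, 33 of the 78 ribosomal protein genes were higher without the skewed library. ITGA3, the integrin chain that binds laminin, had the 1 lower difference among integrins: it rose to 33.6, 55.1 and 31.7 TPM in empty-vector and to 11.7, 12.2 and 11.3 TPM in L191A cells, and differed by -2.80 (limma adjusted p = 0.00012; 0.0478 with all 12 libraries).

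Endothelial and blood cell markers were low. None of 8 endothelial markers reached the level tested, and their summed level lay between 0.145 and 1.36 TPM in every library. Of 15 lymphoid and myeloid markers 5 were measured, with a summed level of 17.5 to 22.4 TPM in empty-vector sgRosa cells, 12 to 15.1 TPM after sgPOU2F3, 7.47 to 11.4 TPM in L191A sgRosa cells and 8.41 to 9.30 TPM in L191A sgPOU2F3 cells. Without the skewed library 2 of the 5 fell and 0 rose in empty-vector cells, but the median response of the 5 was 0.13. Their response difference was higher for 2 and lower for 1, against 12% and 6.41% of all genes (0 and 0 with all 12 libraries). CD8A and PTPRC, the members with the smallest p, fell in empty-vector cells, to 2.02 to 2.82 TPM and to 1.80 to 3.29 TPM. Whether this bears on the results above was not tested. Of 15 neuroendocrine markers 6 were measured. Without the skewed library 2 had a higher and 0 a lower response difference, against 12% and 6.41% of all genes. Median-ratio scaling and quantile normalization each gave 2 higher and 2 lower. With all 12 libraries 0 were called, but 1 was higher and 1 lower after either scaling. UCHL1, a neuronal ubiquitin hydrolase, lay between 590 and 916 TPM in every library with a difference of -0.22 (limma adjusted p = 0.317). PRAME and SALL1, markers of the embryonic kidney line often used to package lentivirus that were also expressed here, differed by 0.52 and -0.24, the first called only without the skewed library.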

How the data were processed

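RNA was extracted with TRIzol and poly(A) libraries were made, per the labels' protocols. The authors deposited 1 table of TPM values per gene and library; kallisto and the build hg38 are named in the submitters' processing notes, with versions not given in the sources used here. TPM sums to the same total in every library, so depth is unknown and no counting interval is given. Of 19875 entries, 134 named no gene (spreadsheet dates and text fragments, 1.65% to 2.44% of the TPM) and were left out of the tests.

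Values were tested as log2(TPM + 1) for genes averaging 1 TPM or more, with limma 3.58.1 (R 4.3.3), group means, an intensity trend and Benjamini-Hochberg adjustment over all 12892 genes at 0.05, in 12 libraries and in 11 without L191A sgRosa replicate 1. A fold change on this scale understates the change of low genes. The procedure was tested on simulated data. Coordinates are from GENCODE v29 on GRCh38 and promoters from RefSeq.

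Genes named were the octamer family, the 10 highest and 10 lowest response differences called in both fits, up to 6 opposite responses, the 10 highest and 10 lowest empty-vector responses, the 5 highest and 5 lowest starting differences, and up to 4 members per list by smallest p, all with at least 5 TPM in the highest group. The genes, lists and rules were chosen with earlier results of these data known. Alternatives were the pseudocount, the filter, scaling, the length trend, library weights, all 6 groups, a replicate block, the variance prior and leaving out each library. A few genes that the rule names are not reported here.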

Additional observations from a re-analysis of the deposited data

Results flagged for a closer look

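The responses of the 2 lines differed by the test of the difference itself, in both fits, for the genes given here. Values are the response difference, L191A minus empty vector, on log2(TPM + 1) in all 12 libraries.

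A higher response in L191A cells was found with 3.95 for PAX1, 3.27 for TAS2R60, 2.97 for TP53INP1, 2.91 for CHAD, 2.75 for RGL1, 2.73 for PRR15L, 2.72 for KLHDC7A, 2.65 for NELL2 and 2.63 for SESN3. Smaller higher values were 2.55 for KIT, 2.53 for RGPD1, 2.46 for SCIN, 2.36 for FOXA1, 2.35 for ADGRF1, 2.35 for SH2D6, 2.30 for SELENOP, 2.26 for ARHGAP24 and 1.94 for BIK. The other higher values were 1.78 for PTGS2, 1.76 for RGS13, 1.71 for ANXA13, 1.53 for PRSS8 and 0.72 for KRT18.

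A lower response in L191A cells was found with -4.50 for KRT17, -3.85 for IL6, -3.80 for CYR61, -3.58 for FOSL1, -3.30 for TGFBI, -3.11 for KRT16, -3.05 for SERPINB7 and -2.90 for PLAU. Next were -2.85 for GREM1, -2.31 for ITGA3, -2.24 for BATF3, -2.22 for ICAM1, -2.2 for LUM, -2.08 for ETV4, -1.96 for IGFBP4, -1.92 for IGFBP3 and -1.91 for ERP27. Further values were -1.82 for IFITM3, -1.75 for VIM, -1.74 for IER3, -1.65 for PHLDA2, -1.59 for JUNB, -1.59 for MT1G, -1.48 for PSMB8, -1.45 for PLAUR and -1.43 for SFN. The smallest differences were -1.21 for IFITM1, -1.19 for ADM, -1.05 for HES6, -0.91 for HLA-C and -0.77 for PES1.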

How the results depend on the processing

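Counts of calls depended strongly on the libraries. With 12 libraries the response difference was called for 310 genes, for 2801 at an unadjusted p under 0.05, and for 169 with a pseudocount of 0.1 TPM, 534 with one of 5 TPM, 502 without a filter, 127 at a mean of at least 5 TPM, 1061 with median-ratio scaling, 1513 with quantile normalization, 5318 with array weights and 791 with all 6 groups. Leaving out each library in turn gave 100 to 2378 calls; the highest was without L191A sgRosa replicate 1, followed by 821 without L191A sgRosa replicate 2, and all others but L191A sgRosa replicate 3 (213) lay between 100 and 178. Starting differences numbered 2993 with 12 libraries, 1899 at a mean of at least 5 TPM, 6142 with array weights, 4601 with all 6 groups and 705 to 5814 with each library left out.

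Without the skewed library the response difference was called for 2378 genes, 5428 with array weights, and 665 to 4108 with each library left out, lowest without L191A sgRosa replicate 3, which leaves 1 library in that group, assumed to vary like the other groups, and highest without empty-vector sgPOU2F3 replicate 2. It was 1392, 1529 and 1538 without L191A sgPOU2F3 replicates 1, 2 and 3. Starting differences numbered 4555, and 1616 to 5757 with each library left out, lowest without L191A sgRosa replicate 3. Starting calls split into 1604 higher and 1502 lower with median-ratio scaling and 1736 and 1700 with quantile normalization in 12 libraries, and 2552 and 2235, and 2299 and 2286, without the skewed library. The cause of these changes was not tested.

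Of 139 named genes tested, 114 were called without the skewed library, 76 of them under every alternative, and 57 with 12 libraries, 29 of them under every alternative. Many genes were named because this difference was called or had a small p, so the counts of named genes follow in part from that choice. Of all 12892 genes tested, 2378 were called without the skewed library and 310 with 12 libraries. A replicate block gave 170 calls (100 higher, 70 lower) with 12 libraries and 1682 without the skewed library, and 2966 and 3844 starting calls. Deviations from group means correlated between -0.58 and 0.56 for same-numbered libraries and between -0.56 and 0.56 for differently numbered ones. These values cannot tell whether same-numbered libraries were handled together, because deviations within a group of 3 are tied to each other.

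No named gene called for the response difference changed sign under an alternative, but genes not called did: 17 in the 12-library fit and 4 without the skewed library. Their values follow, with the value as reported in parentheses. In the 12-library fit NTS (0.07) read -0.02 with a pseudocount of 0.1 TPM, -0.49 with median-ratio scaling, -0.19 with quantile normalization and -0.13 to 0.26 with each library left out. PCOLCE (0.13) read -0.05 with a pseudocount of 5 TPM, -0.43 with median-ratio scaling, -0.34 with quantile normalization, -0.15 with array weights and -0.09 to 0.25 with each library left out. ORC1 (0.02) read -0.02 with a pseudocount of 5 TPM, -0.55 with median-ratio scaling, -0.57 with quantile normalization, -0.13 with length trend removed, -0.49 with array weights and -0.57 to 0.37 with each library left out. C11orf53 (0.11) read -0.50 with median-ratio scaling, -0.13 with array weights and -0.12 to 0.25 with each library left out. LTA4H (0.29) read -0.32 with median-ratio scaling. CDC25C (0.46) read -0.14 with median-ratio scaling. DHCR7 (0.29) read -0.31 with median-ratio scaling, -0.33 with array weights and -0.48 to 0.78 with each library left out. IDI1 (0.49) read -0.11 with median-ratio scaling. RPS3A (0.10) read -0.52 with median-ratio scaling and -0.20 to 0.54 with each library left out. RPL5 (0.31) read -0.30 with median-ratio scaling. SALL1 (0.47) read -0.17 with quantile normalization, -0.03 with array weights and -0.24 to 0.86 with each library left out. HIST1H4J (-1.01) read 0.01 with length trend removed and -2.40 to 0.93 with each library left out. IFITM2 (-0.52) read 0.14 with length trend removed. UCHL1 (-0.29) read 0.20 with length trend removed. UBE2C (-0.57) read 0.03 with length trend removed. RPS15 (-0.61) read 0.13 with length trend removed. PAX6 (0.50) read -0.72 with array weights and -0.55 to 1.03 with each library left out. Without the skewed library PCOLCE (-0.09) read 0.04 with a pseudocount of 0.1 TPM. C11orf53 (-0.12) read 0.06 with quantile normalization and 0.00 with length trend removed. SALL1 (-0.24) read -0.44 to 0.05 with each library left out. HIST1H4J (-0.80) read -2.19 to 1.14 with each library left out.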
